A study of Mus musculus with 4 samples.

Results

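Expression of 7 genes of the neutrophil primary granule was followed in RNA-seq libraries of mouse tibial bone marrow: Mpo, Elane, Prtn3, Ctsg, Ms4a3, Prss57 and Ctsc. The rule that chose them names gene symbols and uses no measured value. Still, the members and the gene lists used further on were chosen with earlier results of these data known. The members are 7 of the 55401 genes in the deposited tables. All 7 passed the filter on low values, which left 18596 genes to test. Not all are proteases, and the label of granule proteases holds only in part: Elane, Prtn3, Ctsg and Prss57 encode serine proteases and Ctsc a cysteine protease, whereas Mpo encodes a peroxidase and Ms4a3 a membrane protein.

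The study asked how exercise alters the bone marrow of mice with diet-induced obesity. Male C57/B6 wild-type mice entered the study at 8 weeks of age and were fed a high-fat diet (HFD) for 6 weeks before they were divided. The obesity group (Ob) stayed on the diet without training, and the exercised obese group (Ob + Exe) ran on a treadmill at moderate intensity for 12 weeks on the same diet. Each group had 9 mice in the study and 2 libraries here. Both groups are obese, and no lean control enters the comparison. The labels number the libraries replicate 1 and 2 in each group and do not say whether each came from a mouse of its own, so the p values measure only the spread between these libraries.

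Primary, or azurophil, granules are formed at the promyelocyte stage, early in the development of neutrophils in the marrow. Their genes are transcribed strongly at that stage and shut down as the cell matures, when secondary and tertiary granule genes follow in turn. Neutrophils carry the stored proteases and myeloperoxidase into tissues, where they kill ingested microbes and can damage the surrounding matrix. The mRNA of these genes in whole marrow is therefore known as a marker of early neutrophil precursors rather than of mature neutrophils. In bulk RNA, fewer cells of a type and less RNA per cell cannot be told apart.

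The 4 libraries held 44310505 to 53038186 read equivalents on transcripts (coverage times transcript length over reads of 150 bases). Expression is given as FPKM, fragments relative to transcript length and library size, scaled between libraries by median-of-ratios factors of 0.945 to 1.04. Across 12409 genes, the log2 values of the Ob pair correlated at 0.949 and those of the Ob + Exe pair at 0.900, and pairs of libraries from different groups at 0.909 to 0.948. Beside bone marrow, the labels also give fibroblast (for cell type) and mesenchymal stem cells (for cell line). The summed level of 12 markers of those cells was 121 to 181 FPKM, of which Cxcl12 alone held 88.4 to 142 FPKM. Of the 12, 9 had a mean of at least 1 FPKM, where those other than Cxcl12 lay between 0.880 FPKM (Pdgfrb) and 8.78 FPKM (Thy1) in a library, while Pdgfra, Col3a1 and Lum were under 1 FPKM in every library and none of the 12 was at 0. The summed level of 12 erythroid markers was 55525 to 83467 FPKM and that of 17 mature neutrophil genes 23580 to 59150 FPKM. Both were far above the sum of the 12 markers of fibroblasts and mesenchymal stem cells. This did not hold for every blood lineage, since 10 T and NK cell markers summed to 26.6 to 37.2 FPKM.

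The promoters of the members are shown as a description of their sequence, and whether motifs bear on the measured levels was not tested. The 250 bases before the RefSeq start (GRCm38.p6) were searched on both strands for core motifs of myeloid transcription factors. RefSeq promoters were matched for 6 of the 7 genes, all but Prss57. The PU.1 core GAGGAA was found in 5 of these 6, those of Mpo, Elane, Prtn3, Ctsg and Ctsc, and in 23.3% of 32841 promoters. The MYB core TAACNG was found in Elane and Mpo (19.8% of promoters), the RUNX core TGTGGT in Ctsg alone (14.0%), and the C/EBP core TTGCNNAA in none (9.57%). Both MYB matches lay past the start of the main transcript and so are absent from the sequences below. No match overlapped another, the promoter of Ms4a3 held none of the 4 motifs, and a match is a string of letters and not a measured binding site. The sequences of Prtn3, Elane, Ctsg and Mpo, which encode the major enzymes of the granule, follow, 5′ to 3′ on the strand of the gene, as the part of the window that lies before the start of the main transcript, with motif letters in capitals.
Prtn3, chr10:79879417-79879613, plus strand: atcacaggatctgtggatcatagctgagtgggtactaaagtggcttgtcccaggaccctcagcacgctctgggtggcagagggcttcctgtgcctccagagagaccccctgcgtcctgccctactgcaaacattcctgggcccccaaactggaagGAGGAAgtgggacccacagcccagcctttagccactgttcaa
Elane, chr10:79886062-79886246, plus strand: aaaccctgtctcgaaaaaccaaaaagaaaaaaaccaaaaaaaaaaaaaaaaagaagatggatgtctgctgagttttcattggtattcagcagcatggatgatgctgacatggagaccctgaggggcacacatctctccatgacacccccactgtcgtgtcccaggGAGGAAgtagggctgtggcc
Ctsg, chr14:56102575-56102824, minus strand: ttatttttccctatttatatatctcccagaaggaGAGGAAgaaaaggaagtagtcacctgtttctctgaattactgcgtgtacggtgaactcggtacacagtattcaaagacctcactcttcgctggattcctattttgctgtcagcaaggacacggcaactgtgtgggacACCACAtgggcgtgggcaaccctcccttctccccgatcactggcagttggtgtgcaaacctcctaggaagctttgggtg
Mpo, chr11:87793534-87793580, plus strand: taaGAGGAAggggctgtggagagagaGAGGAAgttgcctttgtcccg
Each capital run is GAGGAA, except ACCACA in Ctsg, which is the RUNX core read on the other strand. The PU.1 letters lay 85 bases before the RefSeq start in Elane and 95 bases before it in Prtn3, the neighbouring pair of genes, and 216 bases before it in Ctsg. In Mpo they occurred at both 247 and 224 bases before that start. The main transcripts of Mpo, Elane and Prtn3 begin upstream of the RefSeq start. Their PU.1 letters thus lie nearer to the start of the main transcript than these distances.

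In each of the 7 primary granule genes, the libraries of at least 1 group lay further apart than the means of Ob and Ob + Exe, with Mpo at a mean of 235 FPKM in both groups and Elane at 317 and 368 FPKM. None of the 7 genes was called (called means past a log2 fold change of 1 in size with p under 0.05 before adjustment), where 3.74% of all genes tested were (696 genes, 186 higher and 510 lower in Ob + Exe). None had an unadjusted p under 0.05 either, against 5.05% of all genes, and no gene in the whole table had an adjusted p under 0.05 by limma. The groups did not separate in any of the 7, while they did so in 32.6% of all genes. An exact permutation test of 2 against 2 libraries cannot give a two-sided p under 0.333.

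Mpo (ENSMUSG00000009350.13, GRCm38 chromosome 11, as for all coordinates that follow, 87793581 to 87804413, plus strand) encodes myeloperoxidase, the granule enzyme that makes hypochlorous acid from hydrogen peroxide. Its level was 308 and 161 FPKM in the Ob libraries and 286 and 185 FPKM in the Ob + Exe libraries. Both replicate 1 libraries were high and both replicate 2 libraries low, and the Ob + Exe values lay between the Ob values. The group means were 235 ± 104 FPKM in Ob and 235 ± 71.7 FPKM in Ob + Exe (SD, n = 2 each), and the log2 fold change was 0.045 with a standard error of 0.39 (limma, adjusted p = 0.991). Its 95% interval ran from -0.91 to 0.999 on the log2 scale, that is from 0.533-fold to 2.00-fold. Gm11505 lies on the opposite strand inside the gene at 0.382 to 1.68 FPKM, and its reads cannot be told apart from those of Mpo without strand.

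Elane (ENSMUSG00000020125.7, chromosome 10, 79886247 to 79888215, plus strand) encodes neutrophil elastase, a serine protease that cuts elastin and bacterial proteins. It was measured at 434 and 199.7 FPKM in Ob and at 389 and 347 FPKM in Ob + Exe. The Ob + Exe libraries were close to each other and lay between the Ob libraries. The means were 317 ± 166 FPKM and 368 ± 30.0 FPKM (SD, n = 2 each), with a log2 fold change of 0.32 (95% interval -0.65 to 1.29, limma, adjusted p = 0.970). The difference was smaller than the spread within Ob.

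Prtn3 (ENSMUSG00000057729.12, chromosome 10, 79874476 to 79883174, plus strand) encodes proteinase 3, a close relative of elastase. It had 324 and 240.5 FPKM in Ob, and 512 and 239.8 FPKM in Ob + Exe. The first Ob + Exe library was the highest of the 4 and the second the lowest, level with the second Ob library. The means were 282 ± 59.0 FPKM and 376 ± 192 FPKM (SD, n = 2 each), with a log2 fold change of 0.33 (95% interval -0.66 to 1.32, limma, adjusted p = 0.970). Its annotated span overlaps that of Plppr3 on the opposite strand, which was at 6.47 to 13.2 FPKM.

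Ctsg (ENSMUSG00000040314.2, chromosome 14, 56099881 to 56102574, minus strand) encodes cathepsin G, which despite its name is a serine protease with chymotrypsin-like cleavage. Its 4 values were 90.8 and 37.3 FPKM in Ob and 87.4 and 48.6 FPKM in Ob + Exe. This gene had the widest pooled spread within groups of the 7, with replicates apart by 2.44-fold in Ob and 1.80-fold in Ob + Exe. The log2 fold change between the groups was 0.16 (95% interval -1.04 to 1.37, limma, adjusted p = 0.985).

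Prss57 (ENSMUSG00000020323.14, chromosome 10, 79781474 to 79790961, minus strand) encodes a granule serine protease that cuts after arginine. It was the least abundant member in every library, with 14.5 and 11.1 FPKM in Ob and 14.2 and 11.3 FPKM in Ob + Exe. Both group means were 12.8 FPKM, with a log2 fold change of 0.0048 (95% interval -0.65 to 0.66, limma, adjusted p = 0.999). The gene overlaps Fstl3 on the opposite strand, which was at 0.164 to 0.881 FPKM.

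Ctsc (ENSMUSG00000030560.17, chromosome 7, 88278085 to 88310888, plus strand) encodes cathepsin C, the lysosomal dipeptidyl peptidase that activates the granule serine proteases by trimming their N terminus. It is also expressed in many other cell types. Its levels were 27.5 and 24.3 FPKM in Ob and 24.0 and 31.2 FPKM in Ob + Exe. Ctsc was the one member that was not higher in replicate 1 of both groups, and it was highest in the second Ob + Exe library. The log2 fold change was 0.085 (95% interval -0.49 to 0.66, limma, adjusted p = 0.983).

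Ms4a3 (ENSMUSG00000024681.11, chromosome 19, 11629496 to 11640851, minus strand) encodes a membrane protein of the MS4A family with several spans, expressed in granulocyte and monocyte progenitors. Its values were 92.0 and 64.7 FPKM in Ob and 115 and 89.0 FPKM in Ob + Exe. The groups overlapped only slightly, since the second Ob + Exe library fell just under the first Ob library. The means were 78.3 ± 19.3 FPKM and 102 ± 18.3 FPKM (SD, n = 2 each). The log2 fold change of 0.39 was the largest of the 7 members (95% interval -0.26 to 1.04, limma, unadjusted p = 0.190, adjusted p = 0.959).

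**Figure D1:**
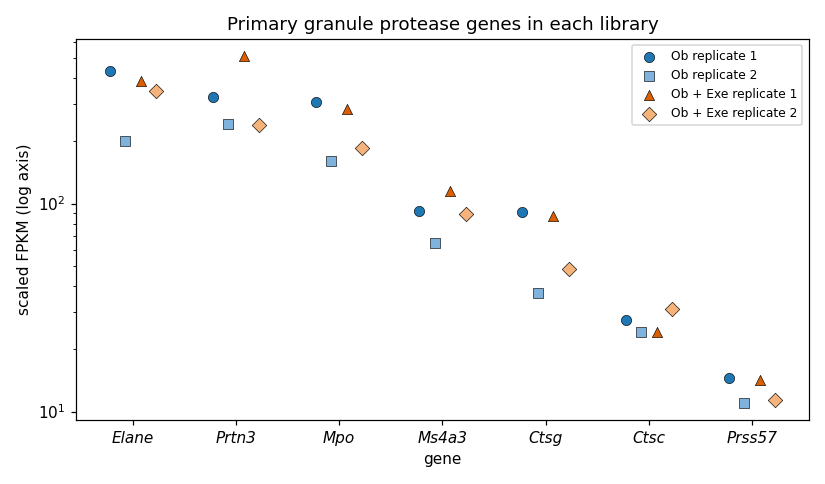
Scaled FPKM of each of the 7 genes (log axis) in the 4 libraries, 1 point per library, with genes ordered by mean level. Mpo runs from 161 to 308 FPKM with both groups mixed, and no gene has its 2 Ob + Exe points on one side of its 2 Ob points.

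All 7 log2 fold changes were above 0 (48.3% of all genes, 52.2% of those with a mean of at least 1 FPKM), with a median of 0.16 against -0.019 over all genes tested, but only 2 of the 7 were above 0 without the second Ob library, 3 of the 7 without the first Ob + Exe library and 4 of the 7 without scaling. The mean of the 7 log2 values came to 6.72 and 6.03 for Ob, then to 6.79 and 6.35 for Ob + Exe. The group means differed by 0.19, beside a standard deviation between replicates of 0.41. Without the second Ob library that difference was -0.17, and without the first Ob library 0.53. None of the 7 genes was called under any of the 16 alternative settings.

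The intervals differ in what they leave room for. For Ctsc and Prss57 a change of 1.58-fold upward was the upper end of the interval, and the lower ends were 0.714-fold and 0.639-fold. Those of Mpo and Elane reached 2.00-fold and 2.44-fold, and that of Ctsg spanned 0.485-fold to 2.58-fold. A rise of 2-fold was thus outside the intervals of Ctsc and Prss57, inside those of Elane, Prtn3, Ctsg and Ms4a3, and at the edge of that of Mpo. Read equivalents behind a member were 1491 or more in every library, so counting error is small beside the spread between libraries.

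**Figure D2:**
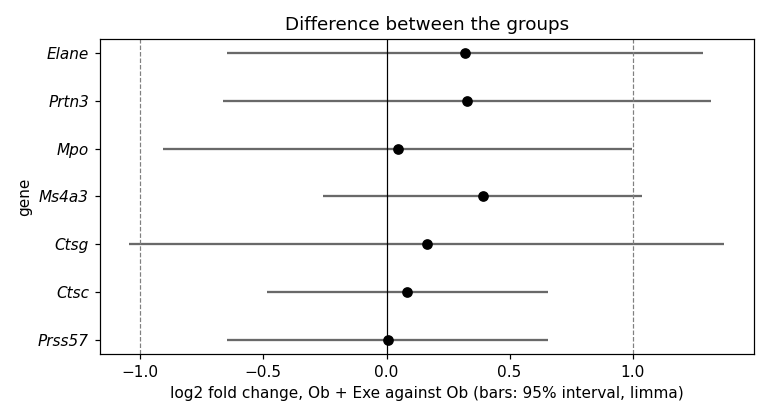
Log2 fold change of each gene in Ob + Exe against Ob (point) with its 95% interval from limma (bar), where dashed lines mark -1 and 1. Every interval crosses 0, and the widest is that of Ctsg, from -1.04 to 1.37.

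The members varied among the libraries of a group, and mostly in the same direction. Of the 7 genes, 6 (all but Ctsc) were higher in replicate 1 than in replicate 2 in both groups, as were 18.4% of all genes tested and 17.8% of the 12395 genes with a mean of at least 1 FPKM. The pattern was not particular to the members: it held for 5 of 10 T and NK cell markers and 5 of 9 megakaryocyte markers. It held for none of the 12 erythroid markers or 17 cell cycle genes. Centred on the mean of the 4 libraries, T and NK cell markers averaged 0.29, -0.34, 0.28 and -0.23. The members averaged 0.25, -0.44, 0.31 and -0.12 (log2 values, Ob, then Ob + Exe). The labels give a shared number no meaning, so this is a description of 4 libraries, which was seen after the values and has no test. The fold from replicate 1 to replicate 2 was 1.91 and 1.55 for Mpo, 2.17 and 1.12 for Elane, and 1.35 and 2.13 for Prtn3 (Ob, then Ob + Exe). The second Ob library held the lowest level of Mpo, Elane, Ctsg, Ms4a3 and Prss57. Together the 7 genes took 0.282% and 0.171% of all FPKM in Ob and 0.333% and 0.191% in Ob + Exe.

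Spread within the groups fell into a wide and a narrow set. The pooled standard deviation of the log2 values within groups was 0.77 for Ctsg, 0.59 for Prtn3, 0.57 for Elane and 0.56 for Mpo, and among genes with at least 1 FPKM, 91.7%, 85.0%, 83.8% and 83.7% had a smaller one. It was 0.31 for Ms4a3, 0.25 for Prss57 and 0.21 for Ctsc, around the median of 0.29 for those genes.

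The order of the members hardly changed from library to library. Elane led in the first Ob and the second Ob + Exe library, and Prtn3 in the other 2, with 434 against 324 FPKM in the first Ob library and 512 against 389 FPKM in the first Ob + Exe library. Mpo, Ms4a3, Ctsg, Ctsc and Prss57 followed in that order in all 4. Ms4a3 and Ctsg were close to each other in the first Ob library, at 92.0 and 90.8 FPKM. FPKM are per transcript length, so the levels of different genes can be set side by side.

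**Figure D3:**
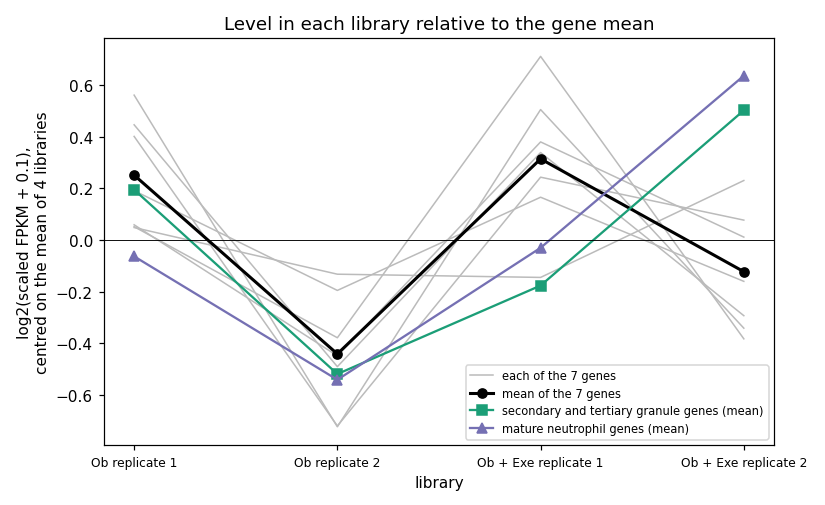
Log2(scaled FPKM + 0.1) relative to the mean of the 4 libraries, for the 7 genes (grey), their mean (black) and the means of the secondary and tertiary granule genes and of the mature neutrophil genes, where lines only link the points of one gene or list. The mean of the 7 genes is 0.25, -0.44, 0.31 and -0.12 from left to right, while the mature neutrophil genes reach 0.64 in the second Ob + Exe library.

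As list means, genes of later stages were highest in another library than the members. Single genes differed: Ngp, of the first list below, was highest in the first Ob library. The member Ctsc was highest in the second Ob + Exe library. The 17 secondary and tertiary granule genes, which encode contents such as lactoferrin, averaged 0.19 and -0.52 in Ob, then -0.18 and 0.50 in Ob + Exe, as centred log2 values. The 17 mature neutrophil genes averaged -0.064 and -0.54, then -0.031 and 0.64. Both lists, like the members, were lowest in the second Ob library, but they were highest in the second Ob + Exe library where the members averaged -0.12. None of the secondary and tertiary granule genes was higher in replicate 1 of both groups.

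The most abundant secondary granule genes were Ngp, with 5072 and 2527 FPKM in Ob and 2269 and 4179 FPKM in Ob + Exe, and Camp, the cathelicidin gene, with 2252 and 1791 against 2713 and 2775 FPKM. None of the 17 was called, 16 had a log2 fold change above 0 and the median was 0.32. Hp, the haptoglobin gene, had a log2 fold change of 0.74 (limma, unadjusted p = 0.0373, adjusted p = 0.959). Without the second Ob or the second Ob + Exe library, 7 of the 17 were above 0.

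Of the 17 mature neutrophil genes, 3 were called higher in Ob + Exe, beside 1.0% of all genes. Il1b, an inflammatory cytokine gene, had 24.1 and 25.5 FPKM in Ob and 56.9 and 69.2 FPKM in Ob + Exe (log2 fold change 1.34, limma, adjusted p = 0.794). Clec4d, a C-type lectin receptor gene, had 29.0 and 24.1 against 43.4 and 89.8 FPKM. Clec4e, which encodes the lectin receptor Mincle, had 11.9 and 9.92 against 16.3 and 33.9 FPKM. The most abundant gene of the list, S100a8, ranged from 11901 FPKM in the second Ob library to 35869 FPKM in the second Ob + Exe library, with a log2 fold change of 0.61 that did not pass. S100a9, which encodes its partner protein, had 0.19. The list had 1 to 5 calls over the alternatives: 1 without the second Ob library, the second Ob + Exe library or the intensity trend and with the highest transcript only, and 5 without the first Ob + Exe library. Whether the change of this list differs from that of the members was not tested.

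Other contents of the primary granule averaged 0.052 and -0.33 in Ob, then 0.16 and 0.13 in Ob + Exe, as centred log2 values. Of 14 such genes found, 13 passed the filter, none was called, 11 had a log2 fold change above 0 and the median was 0.33. Without the second Ob library, 8 of the 13 were above 0 and the median was 0.057. Lyz2, the lysozyme gene, had 2671 and 1731 FPKM in Ob and 2412 and 4013 FPKM in Ob + Exe. Srgn encodes serglycin, the proteoglycan that packs the proteases, and had 285 and 167 against 266 and 327 FPKM (log2 fold change 0.43). Both were highest in the second Ob + Exe library, unlike Mpo and Elane. Bpi was listed at 0 in 3 of the 4 libraries and was not tested.

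Early neutrophil precursor genes, 15 in number, had no call, a median log2 fold change of 0.21 and 7 genes that were higher in replicate 1 of both groups. The list shares Hp with the secondary and tertiary granule genes. It shares other genes with the regulators, inhibitors and monocyte markers, so these lists are not independent. The median turned to -0.073 without the second Ob library, with 6 of the 15 above 0, and without the first Ob library it was 0.44, with all 15 above 0 and 1 call. It was 0.35 without the first Ob + Exe library. Cd24a had 1048 and 840.3 FPKM in Ob and 571 and 1374 FPKM in Ob + Exe. Fcnb, a ficolin gene of promyelocytes and myelocytes, ranged from its lowest level in the second Ob library to 113 FPKM in the first Ob + Exe library. Hp likewise had its lowest level in the second Ob library, 203 FPKM, and its highest in the second Ob + Exe library, 444 FPKM.

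None of the 20 regulators of granulocyte and monocyte progenitors was called, and 9 of the 20 were above 0 with a median of -0.077, which turned to 0.019 without the first and 0.012 without the second Ob + Exe library. Csf3r, the receptor for G-CSF, had 141 and 134 FPKM in Ob and 185 and 166 FPKM in Ob + Exe. Csf2ra, a subunit of the GM-CSF receptor, had 137 and 173 against 154 and 156 FPKM. Klf4, a monocyte regulator, had 9.35 and 10.2 against 5.16 and 5.50 FPKM, a log2 fold change of -0.87 that missed the size threshold (limma, unadjusted p = 0.0143, adjusted p = 0.959).

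Protease inhibitor genes were followed as well, and the list mixes inhibitors of serine proteases with cystatins, which inhibit cysteine proteases. Of 13 inhibitor genes that passed the filter, none was called and 8 were above 0, with a median log2 fold change of 0.34. The median was 0.084 without the second Ob library, 0.14 with 1 call without the second Ob + Exe library, and 0.17 with a minimum mean of 1 FPKM. Cst3, the cystatin C gene, had 216 and 184 FPKM in Ob and 193 and 194 FPKM in Ob + Exe, and Slpi, which encodes an inhibitor of elastase, had 151 and 102 against 135 and 186 FPKM. The level of Slpi was highest in the second Ob + Exe library.

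**Figure D4:**
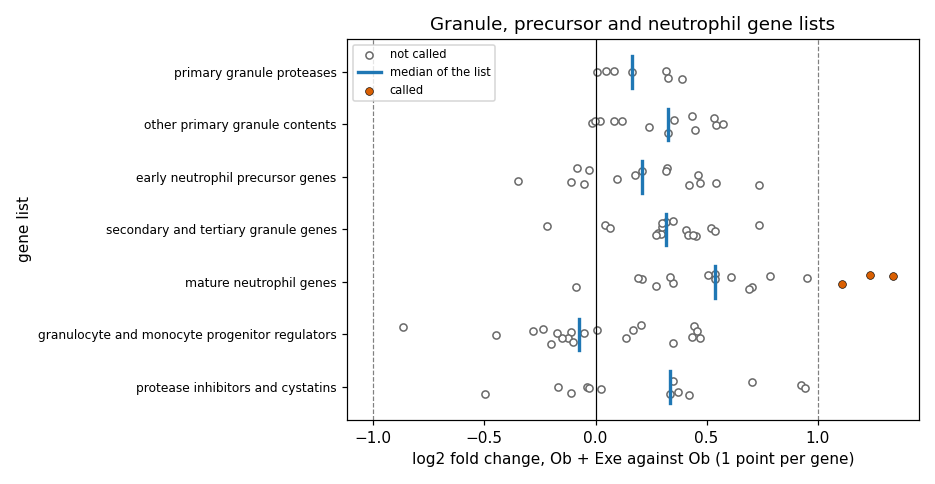
Log2 fold change of each tested gene of 7 lists (1 point per gene, filled where called), with the list median as a vertical bar. The members have no filled point and a median of 0.16, and 3 of the 17 mature neutrophil genes are filled.

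Relatives of the members in other granules and families were followed as well. The 11 tested serine proteases of other granules had no call and a median log2 fold change of 0.16, but the median had no stable sign: it was -0.23 with a pseudocount of 0.01, -0.25 with limma voom, -0.21 without a filter, -0.15 without the second Ob library and -0.048 without the second Ob + Exe library. It was 0.41 without the first Ob and 0.30 without the first Ob + Exe library. Only 4 of the 11 passed a minimum mean of 1 FPKM, with a median of 0.20. A gene of the list was called lower without a filter, without the intensity trend and without the first Ob, the second Ob or the second Ob + Exe library, and 1 was called higher without the last of these. The most abundant were the basophil proteases Prss34, with 68.0 to 124 FPKM, and Mcpt8, with 58.2 to 92.8 FPKM. The 13 other cathepsins and cysteine peptidases had no call and a median of -0.068. It was -0.24 without the first Ob library, 0.12 without the second Ob library and -0.20 with 1 gene called lower without the second Ob + Exe library, and between -0.16 and -0.099 without scaling, with TPM, quantile normalization, limma voom or the highest transcript only. Ctse, the most abundant, had 242 and 201 FPKM in Ob and 84.6 and 213 FPKM in Ob + Exe. The 5 tested heme peroxidases other than Mpo had no call, but 1 was called higher with the replicate block. All 5 had a log2 fold change above 0, from 0.22 to 1.74, with a median of 1.12. The median was 0.28 with a pseudocount of 1 and 0.62 without the second Ob + Exe library. Only 2 of the 5 passed a minimum mean of 1 FPKM, with a median of 0.97. Lpo was near the floor, at 9 to 106 read equivalents. Epx, the eosinophil peroxidase gene, had 1.11 and 0.871 FPKM in Ob and 1.58 and 7.70 FPKM in Ob + Exe. Among 12 tested MS4A genes, none was called, although 1 was called lower without the second Ob + Exe library or with the highest transcript only. Ms4a4a had a log2 fold change of 0.70 that missed the size threshold (limma, unadjusted p = 0.0290, adjusted p = 0.959).

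Some markers of other cell types were called in the same comparison, none with an adjusted p under 0.94 (limma). Of the 9 megakaryocyte markers, 3 were called lower in Ob + Exe (2.74% of all genes were), namely Gp1ba, Gp5 and Treml1 with log2 fold changes of -1.99, -1.10 and -1.04, as were 2 of the 12 B cell markers, Cd79a and Igll1. Of the 15 eosinophil, basophil and mast cell markers, Prg2 and Hdc were called higher with 1.41 and 1.13 (1.0% of all genes were called higher). Of the 12 markers of mesenchymal stem cells and fibroblasts, Col1a1 was called lower with -1.01, close to the threshold. No marker of that list was called lower without the first Ob, the second Ob or the first Ob + Exe library, nor with a pseudocount of 1, no filter, quantile normalization, the replicate block or the highest transcript only, and 1 was called higher without the first Ob + Exe library. None of the 10 T and NK cell markers, 10 monocyte markers, 12 erythroid markers or 17 cell cycle genes was called, although without the first Ob + Exe library 1 T and NK cell marker was called lower, and with the highest transcript only 1 of them and 1 cell cycle gene were called higher. The count of called megakaryocyte markers was 0 without the first Ob library, 1 without the second Ob or the second Ob + Exe library and 8 without the first Ob + Exe library. It was also 1 with a pseudocount of 1, without the intensity trend and with the highest transcript only, and 2 without a filter. For eosinophil, basophil and mast cell markers called higher it was 0 without the second library of either group, while 2 were called lower without that of Ob + Exe. It was 1 without the first Ob library, 6 without the first Ob + Exe library and 4 with the replicate block. Of the B cell markers, 1 was called lower without the first Ob library, and 3 without the first or without the second Ob + Exe library, with quantile normalization, with the replicate block or with the highest transcript only. The part of these markers in the values of the members was not tested.

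Mpo was the member with the largest shift between its transcripts. Its main transcript ENSMUST00000020779.10 shares 13 of its 14 exons, and the whole coding sequence, with ENSMUST00000121303.7, which begins 628 bases downstream with another non-coding first exon of 154 bases. The downstream transcript was assigned 87.5 and 0.0367 FPKM in Ob and 64.3 and 0 FPKM in Ob + Exe, or 14409, 6, 9140 and 0 read equivalents. It held 28.4% and 22.5% of the Mpo signal in the 2 replicate 1 libraries and at most 0.0228% in the others. The upstream transcript had 207 and 147 FPKM against 200.5 and 175 FPKM, so it varied less than the gene. StringTie divides reads of shared exons by estimation, and only the first exon separates these 2 transcripts.

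**Figure D5:**
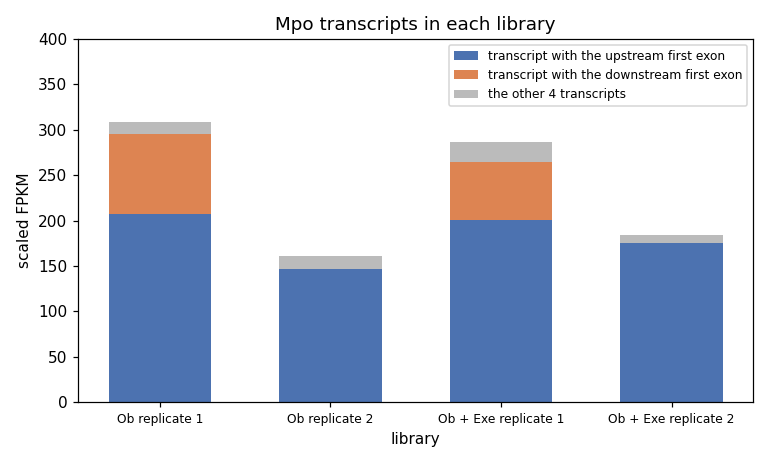
Scaled FPKM of Mpo in each library (bars from 0), divided into the transcript with the upstream first exon, the one with the downstream first exon and the other 4. The downstream transcript is visible in the 2 replicate 1 libraries, at 87.5 and 64.3 FPKM.

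The other members had 1 main transcript throughout. It held all of the signal of Elane, which has a single transcript, 98.9% to 100% in Ctsg, 90.3% to 96.6% in Prtn3, 89.7% to 93.0% in Ms4a3, 86.5% to 91.3% in Ctsc and 78.6% to 83.9% in Prss57.

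Elane, Prtn3 and Prss57 lie near each other on chromosome 10, with 3073 bases between Elane and Prtn3. Cfd, the gene of adipsin, which is a serine protease of the complement system and the adipokine the study is about, begins 2638 bases beyond Elane. It was at 1.61 and 0.909 FPKM in Ob and 1.49 and 0.705 FPKM in Ob + Exe, with a log2 fold change of -0.21 (95% interval -1.62 to 1.19, limma, adjusted p = 0.983). The signal of Cfd was thin, with between 36 and 101 read equivalents per library. The decrease of adipsin that the paper reports was measured as protein, by Western blotting of tibial marrow and of stretched cells. The RNA values here do not test that result. Like its neighbours Elane and Prtn3, Cfd was higher in replicate 1 of both groups, at a level far below theirs. Ctsg lies 14608 bases from Mcpt8, Mpo 2015 bases from Lpo and Ms4a3 5777 bases from Ms4a2. Of 73 other genes within 100 kb of a member, 44 were tested and none was called.

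Genes with the most similar course over the 4 libraries were ranked by the distance between centred log2 values and the mean of the members, among 12395 genes with at least 1 FPKM. The nearest 8 were Alg9 (0.0806), Gm45606, Bace1, Rpl27-ps3, Zfp637, Slc35d2, Cldn12 and Fdps (0.111). Among the members themselves the distances ran from 0.243 for Ms4a3, rank 70, to 0.686 for Ctsc, rank 3865. Over 4 points many genes lie close by, and this likeness is a description only.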

How the data were processed

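Total RNA of tibial marrow, enriched for poly-A RNA, was sequenced in 4 libraries. The authors trimmed reads with fastp, removed rRNA reads, used HISAT2 to align what remained to GRCm38, SAMtools to filter and StringTie to quantify GENCODE transcripts, and the submitters' processing notes also name FastQC and DESeq2. The authors deposited, per transcript, the mean read coverage (a signal not normalized for depth) and the FPKM. Counting by strand is not given in the sources used here.

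FPKM were summed over the transcripts of a gene, and a gene was kept if its mean FPKM reached 0.1. Median-of-ratios factors were applied, 0.1 was added, and log2 values were fitted with limma 3.58.1 in R 4.3.3 (lmFit, eBayes with an intensity trend, 2 residual and 3.79 prior degrees of freedom), with Benjamini-Hochberg adjustment over all genes. FPKM are not counts, so a count model was not used, and fold changes are on the log2(value + 0.1) scale, which understates those of low genes. The call rule was that of the study: p under 0.05 without adjustment, and a log2 fold change past 1 in size. The script was tested on simulated data. Tables and figures were made with Python 3.11.15, pandas 2.3.3, numpy 2.4.6 and matplotlib 3.10.9.

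Groups came from the titles of the labels. The members and lists were chosen with earlier results of these data known. Genes named in the text are the 7 members, Cfd, the 8 nearest genes by distance and, in each list, called genes, the 2 most abundant and those with the largest change past an unadjusted p of 0.05. Others (Fcnb, Bpi, Col3a1, Pdgfra, Pdgfrb, Lum, Thy1 and the neighbours of members) were chosen after their values were seen. Of 19 list entries for protease inhibitors, 18 were found. Alternatives were another pseudocount, filter, scaling or test, the replicate block, and each library left out. The precision is limited by 2 libraries per group and not by depth. Promoters come from RefSeq (GRCm38.p6). No tables of protein sequence were used here.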

Additional observations from a re-analysis of the deposited data

How the results depend on the processing

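None of the 7 members was called in any of 16 alternatives, 1 of which, the crossed pairing, was chosen after seeing the data. Leaving out each library in turn moved the log2 fold change from -0.44 to 0.51 for Mpo, from -0.25 to 0.87 for Elane, from -0.23 to 0.86 for Prtn3, from -0.49 to 0.80 for Ctsg, from -0.20 to 0.19 for Prss57 and from -0.12 to 0.26 for Ctsc, with a change of sign in each of the 6, while Ms4a3 stayed above 0 (0.12 to 0.64). Without scaling the value was -0.043 for Mpo, -0.083 for Prss57 and -0.0031 for Ctsc. With TPM it was -0.011 for Mpo and -0.051 for Prss57. Prss57 was also -0.00042 with a minimum mean FPKM of 1, -0.024 with quantile normalization, -0.032 with limma voom and -0.086 with the highest transcript only. Each of these values without scaling or under another method was smaller in size than the standard error, and the cause was not tested.

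Calls among all genes, 696 (186 higher, 510 lower), became 222 (73 and 149) with a pseudocount of 1, 267 (91 and 176) with a minimum mean FPKM of 1, 455 with limma voom (112 higher) and 1060 without the intensity trend (784 lower). Higher calls were 321 with the highest transcript only, and lower calls 818 without a filter. Leaving out a library gave 599 to 1851 calls, 71 to 669 of them higher and 528 to 1182 lower. The replicate numbers pair nothing by the labels: the correlation of replicate differences was -0.11 over all genes and -0.24 over genes with at least 1 FPKM. With the replicate block, 18 genes had an adjusted p under 0.05, none of them a member, and the crossed pairing gave 11.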
